A study of Mus musculus with 2 samples.

Results

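The Adamts proteases, the matrix metalloproteinases and their Timp inhibitors were described in the mandibular prominence of mouse embryos with and without Kif3a in the neural crest. All genes whose symbol in both deposited tables is Adamts, Mmp or Timp followed by its number were taken, whatever their level. This gave 46 genes of 30723: 19 Adamts, 23 Mmp and 4 Timp genes. The Kif3a mutant library came from embryos of the genotype Kif3a f/f ; Wnt1-Cre, and the other library from embryos labelled control, whose alleles are not given further. Both pools were of 10 embryos on a mixed CD1 background, collected at stage E11.5 per the labels, and total RNA was sequenced. The names of the deposited tables give E11 for the mutant, E11.5 for the control and separate sequencing runs, so that run and stage cannot be told apart from genotype.

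The mandibular prominence is the facial swelling that forms the lower jaw. Its mesenchyme comes mainly from the neural crest, in which Wnt1-Cre recombines floxed alleles, while epithelium, endothelium, blood and muscle precursors in the same dissection keep Kif3a. Kif3a encodes a subunit of the kinesin-2 motor that builds primary cilia. Matrix metalloproteinases are zinc enzymes that cut collagens, proteoglycans and other extracellular proteins. ADAMTS enzymes are secreted relatives with thrombospondin repeats, which trim procollagens and cut large proteoglycans such as versican. Timp proteins bind the active site of these enzymes and block it.

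Values are FPKM, fragments scaled to the length of the transcript and the depth of the library, summed over the transcripts of a gene. Libraries held about 24500000 fragments in the mutant and 24700000 in the control. With 1 library per group, no difference has a replicate check and no p-value is given. Intervals in parentheses are 95% counting intervals on approximate fragment numbers. They do not cover variation between embryos or preparations. The log2 ratio is log2 of mutant FPKM plus 1 over control FPKM plus 1, which draws genes with low values toward 0. The limits of 2-fold and 1.5-fold apply to this log2 ratio (1 and 0.58 either way), not to the ratio of FPKM without the added 1, so that a gene with low values can pass a fold in FPKM and not the limit. Kif3a stood at 5.39 FPKM in the mutant, against 11.46 FPKM in the control, a ratio of 0.471 (0.431 to 0.514). The jaw mesenchyme markers Hand2, at 67.4 FPKM in the mutant and 89.9 FPKM in the control, and Prrx1, at 165 FPKM in the mutant and 143 FPKM in the control, were abundant in both libraries. Across 12259 genes that averaged at least 1 FPKM over both libraries, the median log2 ratio was -0.13, and this gene at the middle of the ranking is called the median gene below.

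Of the 46 genes, 24 passed a mean FPKM of 1: 14 Adamts, 7 Mmp and 3 Timp genes. The other 22 were lower, and 8 of them, 7 Mmp genes and Timp4, were at 0 in both libraries. The most abundant were the gelatinase Mmp2, the membrane-bound collagenase Mmp14 and the inhibitor Timp2. Mmp2 and Mmp14 together made up 70.2% of all Mmp FPKM in the mutant and 70.6% in the control. The ADAMTS level was spread over more genes: the most abundant, Adamts10, made up 25.2% of all Adamts FPKM in the mutant and 21.2% in the control. Timp2 made up 66.0% of all Timp FPKM in the mutant and 67.5% in the control.

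Of the 23 Mmp genes, 10 lie next to each other in a cluster on chromosome 9, from 7272514 to 7699416 on GRCm38, and 0 of these passed a mean of 1 FPKM over both libraries, where 7 of the 13 Mmp genes elsewhere did. The cluster holds collagenases, stromelysins, the matrilysin Mmp7 and related enzymes, some of them known from wounds, inflammation and bone remodelling. Promoters of 3 of these genes are shown. As a group, the cluster's promoters differ in their letters from those of Mmp genes elsewhere and of Adamts genes. The sequences are the 150 bases before the gene's start in the RefSeq table of promoters (GRCm38.p6), written 5′ to 3′ along the gene. Capitals mark the AP-1 motif (TGANTCA), the letters bound by the AP-1 factors Fos and Jun, and the TATA box (TATAAA). The first 3 are a collagenase, a stromelysin and an interstitial collagenase of the cluster.
Mmp13 promoter, chr9:7272364-7272513, plus strand: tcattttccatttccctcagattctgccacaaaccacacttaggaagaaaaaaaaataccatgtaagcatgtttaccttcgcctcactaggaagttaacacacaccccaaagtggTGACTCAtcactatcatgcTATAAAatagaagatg
Mmp3 promoter, chr9:7445672-7445821, plus strand: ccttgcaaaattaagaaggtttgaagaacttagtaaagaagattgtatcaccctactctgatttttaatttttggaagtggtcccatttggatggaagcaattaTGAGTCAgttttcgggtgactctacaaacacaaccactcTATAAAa
Mmp1a promoter, chr9:7463991-7464140, plus strand: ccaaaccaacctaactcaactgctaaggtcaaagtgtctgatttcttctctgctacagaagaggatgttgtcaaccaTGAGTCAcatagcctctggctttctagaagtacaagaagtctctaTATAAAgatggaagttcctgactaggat

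Both motifs stood in each of the 3 stretches. In Mmp13 the AP-1 motif began 35 bases and the TATA box 16 bases before the start, in Mmp3 46 and 7 bases, and in Mmp1a 73 and 28 bases. The next 4 sequences belong to expressed genes that the results below turn on. In them, capitals mark the GC box (GGGCGG), the letters bound by Sp1-type factors.
Mmp14 promoter, chr14:54431448-54431597, plus strand: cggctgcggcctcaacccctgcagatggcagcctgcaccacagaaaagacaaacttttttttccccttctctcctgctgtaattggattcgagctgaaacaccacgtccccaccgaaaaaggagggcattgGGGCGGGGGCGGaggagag
Mmp11 promoter, chr10:75932503-75932652, minus strand: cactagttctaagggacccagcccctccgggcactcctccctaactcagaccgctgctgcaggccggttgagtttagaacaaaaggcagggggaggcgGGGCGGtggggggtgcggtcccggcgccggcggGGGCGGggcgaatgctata
Timp2 promoter, chr11:118355412-118355561, minus strand: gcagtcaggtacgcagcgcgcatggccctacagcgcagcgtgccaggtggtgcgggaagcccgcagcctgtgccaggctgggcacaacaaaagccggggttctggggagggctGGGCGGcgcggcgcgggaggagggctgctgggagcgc
Adamts13 promoter, chr2:26973266-26973415, plus strand: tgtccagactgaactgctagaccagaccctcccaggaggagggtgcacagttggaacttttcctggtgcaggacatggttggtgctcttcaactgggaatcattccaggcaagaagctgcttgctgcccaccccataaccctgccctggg

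Mmp14 held a pair of adjoining GC boxes, Mmp11 also held 2 and Timp2 held 1, while the Adamts13 stretch held none of these motifs. Whole promoter windows, from 250 bases before to 50 bases after the start, were found in the table for 32 of the 46 genes. The table holds no window for Adamts4, Adamts5, Adamts6, Adamts7, Adamts8, Adamts10, Adamts15, Adamts16, Adamts19, Mmp2, Mmp9, Mmp16, Mmp17 and Mmp19. Each window was searched on both strands for the AP-1 motif, the TATA box, the GC box, the GLI-type motif TGGGTGGTC and the dinucleotide CG, which also lies inside the GC box. In the chromosome 9 cluster, 7 of 10 windows (70%) held the AP-1 motif, 8 (80%) the TATA box and 0 the GC box. In the 8 windows of Mmp genes elsewhere, 0 held the AP-1 motif, 1 (12.5%) the TATA box and 6 (75%) the GC box. The 10 Adamts windows held the AP-1 motif in 0, the TATA box in 1 (10%) and the GC box in 8 (80%). Within the cluster, Mmp12 and Mmp27 held neither the AP-1 motif nor the TATA box, and Mmp8 held the TATA box alone. Outside it, Mmp24, Mmp25 and Adamts14, all under the mean of 1, held 3, 2 and 7 GC boxes and neither other motif. Of the other genes under that mean outside the cluster, Mmp21 held a TATA box, and Adamts12 and Timp4 held none of the motifs. Among all 27025 windows of the table, 7.93% held the AP-1 motif, 14.2% the TATA box and 35.9% the GC box.

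The median number of CG dinucleotides was 1 in the cluster, 19 in the Mmp windows elsewhere, 23.5 in the Adamts windows and 7 in all windows. The GLI-type motif stood in 0 of the 32 windows and in 66 of all 27025 (0.244%). A match is a description of the letters, not a bound site, and the absence of a match says only that these letters are not in the window.

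**Figure D1:**
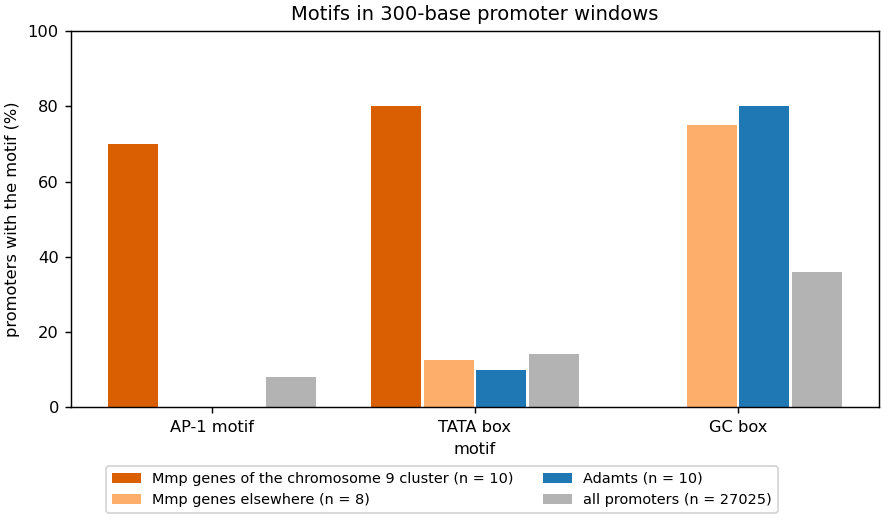
Share of promoter windows (percent) that hold the AP-1 motif, the TATA box or the GC box, in the Mmp genes of the chromosome 9 cluster (n = 10), Mmp genes elsewhere (n = 8), Adamts genes (n = 10) and all windows (n = 27025). The cluster stands at 70%, 80% and 0%, and the Adamts genes at 0%, 10% and 80%.

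In the cluster, 7 of the 10 genes were at 0 in both libraries: Mmp1b, Mmp3, Mmp1a, Mmp10, Mmp27, Mmp20 and Mmp7. Mmp1a is annotated as a polymorphic pseudogene in GENCODE. The level of 3 fragments was taken as the upper limit that a count of 0 allows. For the 7 genes at 0, it ran from Mmp20 to Mmp7, 0.0374 to 0.139 FPKM in the mutant and 0.0371 to 0.139 FPKM in the control. The macrophage elastase Mmp12 stood at 0.132 FPKM in the mutant, about 11 fragments, and 0.0713 FPKM in the control, about 4 fragments. Its deposited locus overlaps that of Mmp1b by 1830 bases. The neutrophil collagenase Mmp8 was at 0 in the mutant, where the level of 3 fragments was 0.0499 FPKM, against 0.119 FPKM, about 6 fragments, in the control. Mmp13, an early enzyme of bone formation, was at 0 in the mutant and at 0.0139 FPKM, under the level of 3 fragments, in the control. The interval of the Mmp12 ratio, 0.550 to 7.99, held 1, and the other differences rest on about 6 fragments or fewer. The genes that flank it were expressed in both libraries: Dcun1d5 at 56.5 FPKM in the mutant and 63.1 FPKM in the control, and Tmem123 at 39.5 FPKM in the mutant and 37.0 FPKM in the control.

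**Figure D2:**
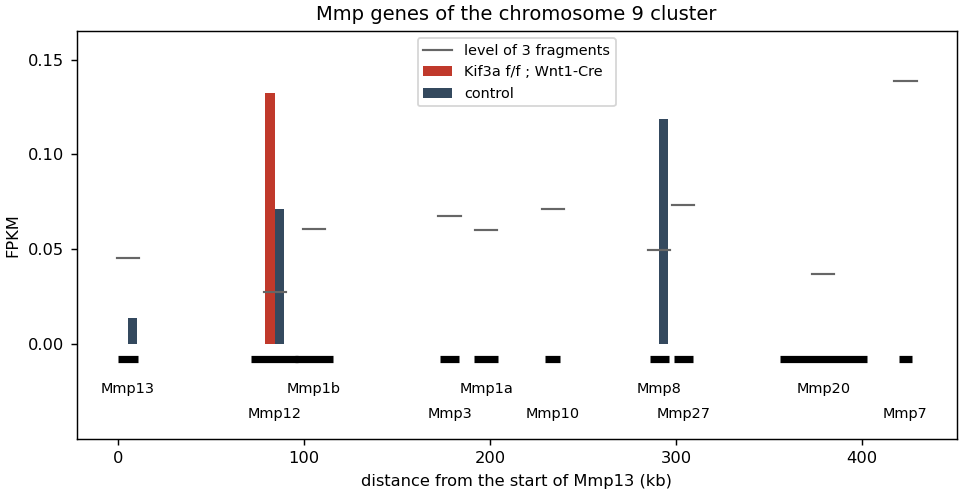
FPKM of the 10 Mmp genes of the chromosome 9 cluster against the distance from the start of Mmp13 (kb), with a mutant bar left of a control bar (1 library each) and a line at the level of 3 fragments in the control. Mmp12 has a bar in both libraries, Mmp8 and Mmp13 have one in the control, and the other 7 genes are at 0.

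Between the libraries, most of the 24 genes that passed the mean of 1 lay inside the 1.5-fold limit. At the 2-fold limit, 1 gene was lower in the mutant, Adamts13, where 1.36% of the 12259 genes were, and 0 were higher, where 0.767% were; 2.13% of all genes passed it in either direction. At the 1.5-fold limit, 3 were lower, Adamts13, Adamts15 and Mmp11, where 5.57% of all genes were, and 0 were higher, where 2.76% were; 8.33% passed it in either direction. In FPKM without the added 1, Adamts15 was also past 2-fold, at a ratio of 0.478, and Adamts2, Mmp28 and Adamts18 were past 1.5-fold, at ratios of 0.587, 0.635 and 1.64. The shares of all genes past these folds in FPKM without the added 1 were not computed. After centring on the median gene the split at the 1.5-fold limit was 1 lower and 1 higher, where 3.23% and 4.55% of all genes were. The log2 ratio was below 0 for 15 of the 24, near the 67.9% of all genes. The counting interval lay wholly below the median gene for 9 (29.6% of all genes), wholly above it for 8 (32.0% of all genes) and held it for 7. The median log2 ratio was 0.02 over 14 Adamts, -0.32 over 7 Mmp and -0.46 over 3 Timp genes, beside -0.13 over all genes. Markers of some cell types differed too. Of 8 skeletal muscle markers, 6 passed the mean of 1 and 5 of these were at least 2-fold lower, and the 8 summed to 13.1 FPKM in the mutant and 43.5 FPKM in the control. The 11 oral epithelium markers had a median log2 ratio of 0.34 and summed to 207 FPKM in the mutant and 185 FPKM in the control. They did not share a direction: 3 were below 0, Krt15 at -1.13, Krt5 at -0.72 and Krt14 at -0.24. None of the 11 was at least 1.5-fold higher. Other marker lists had medians near that of all genes. The 8 markers of neural crest mesenchyme of the jaw had -0.08, with 0 past the 1.5-fold limit. Over the mean of 1, 3 Schwann and glia markers had -0.12, with 1 at least 2-fold lower, and 4 neuron markers -0.08, with 1 at least 1.5-fold higher. Blood and endothelial markers are given further on, and the part of these cell types in the family medians was not tested. Summed Mmp FPKM stood at 97.5 in the mutant and 131 in the control, and summed Timp FPKM at 33.3 in the mutant and 48.6 in the control. The ratio of the Timp sum to the Mmp sum was 0.342 in the mutant and 0.371 in the control.

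**Figure D3:**
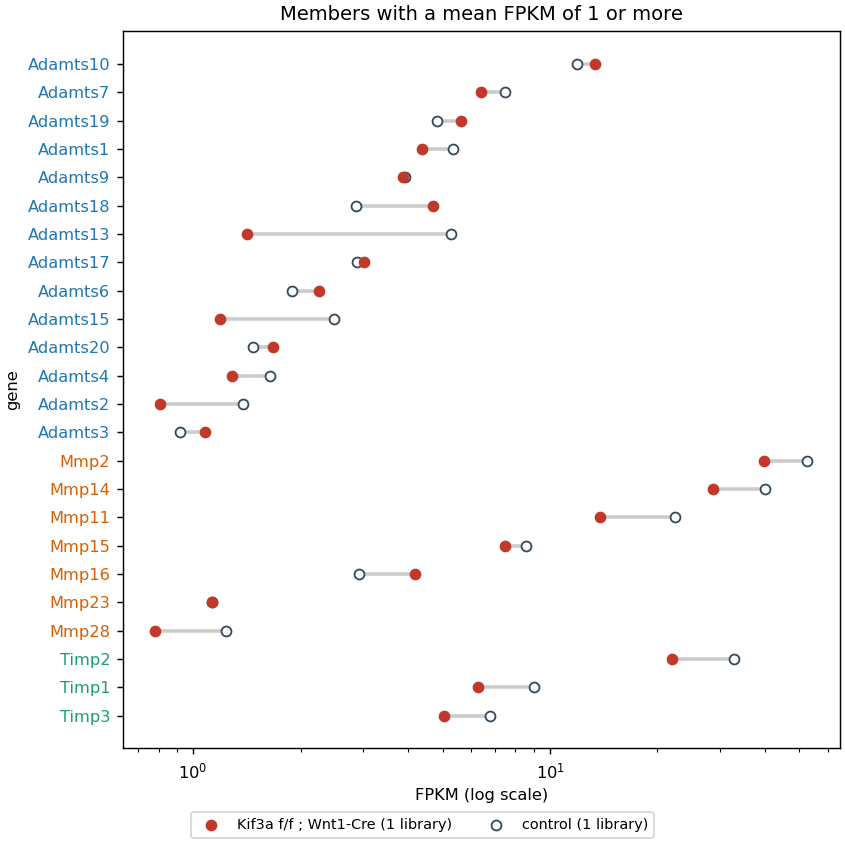
FPKM (log axis) of the 24 genes that averaged at least 1 FPKM, with a filled point for the mutant library and an open point for the control library. Mmp2, Mmp14 and Timp2 are the most abundant in both libraries, and Adamts13 shows the widest gap, at 1.41 FPKM in the mutant and 5.29 FPKM in the control.

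**Figure D4:**
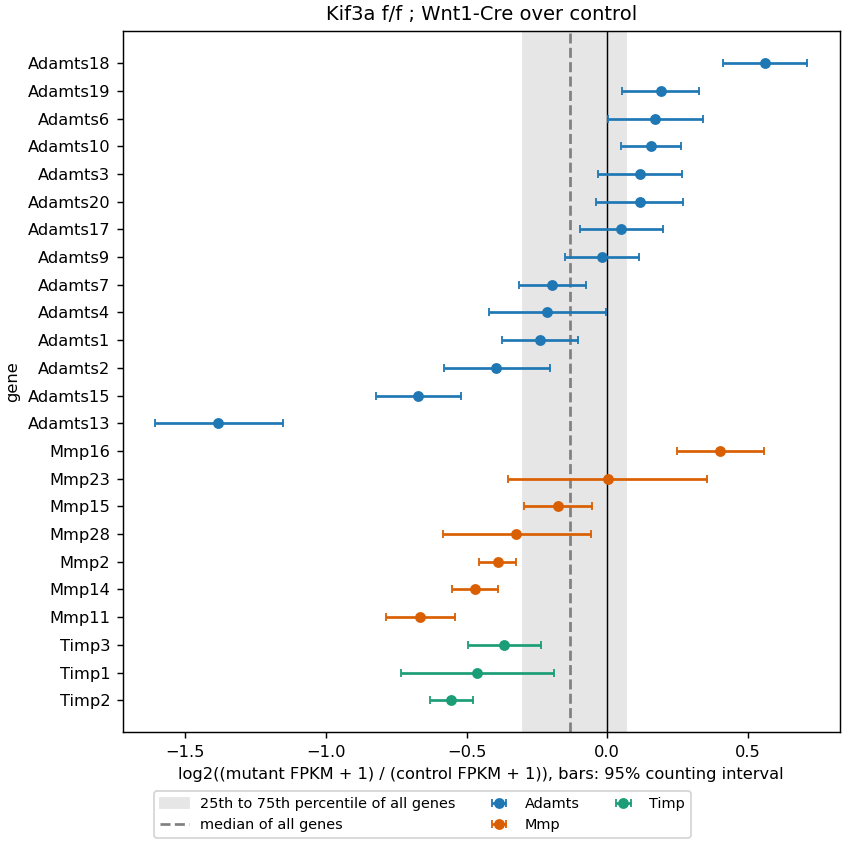
Log2 ratio of mutant over control for the same 24 genes, with 95% counting intervals as bars; the dashed line is the median of all genes at -0.13 and the grey band their 25th to 75th percentile, -0.30 to 0.06. All 3 Timp genes and Adamts13, Adamts15, Mmp11, Mmp14, Mmp2 and Adamts2 have intervals left of the dashed line, while Adamts18 and Mmp16 are farthest right.

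The gelatinase Mmp2, which cuts denatured collagen and basement membrane collagen, stood at 39.9 FPKM in the mutant and 52.5 FPKM in the control. The ratio was 0.759 (0.725 to 0.796) and the log2 ratio -0.39. It lies on chromosome 8 from 92827328 to 92853420. Its membrane-bound activator Mmp14, also called MT1-MMP, stood at 28.6 FPKM in the mutant and 40.0 FPKM in the control, a ratio of 0.715 (0.674 to 0.758) and a log2 ratio of -0.47. Both genes of this pair were lower in the mutant (with TPM-like scaling their log2 ratios were 0.19 and 0.10, above 0), neither reached the 1.5-fold limit, and both stayed below the median gene under every alternative tried. Timp2, which bridges the 2 enzymes during activation of proMMP2, stood at 22.0 FPKM in the mutant and 32.8 FPKM in the control. Its ratio was 0.671 (0.635 to 0.709) and its log2 ratio -0.55. The 3 genes of this activation complex thus had ratios between 0.671 and 0.759.

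The other gelatinase, Mmp9, an enzyme of leukocytes, osteoclasts and sprouting vessels, was under the mean of 1. It stood at 0.126 FPKM in the mutant, about 11 fragments, and 0.630 FPKM in the control, about 51 fragments. The ratio was 0.201 (0.0942 to 0.390), or 4.99-fold lower in the mutant. Blood cell markers were also lower in the mutant. Of 12 macrophage and leukocyte markers, 8 passed the mean of 1. All 8 had log2 ratios below 0, where 67.9% of all genes did, and 7 lay below the median gene. The 12 summed to 17.5 FPKM in the mutant and 29.3 FPKM in the control. Of 6 neutrophil markers, 2 passed, both at least 2-fold lower, Elane and Ngp were at 0 in both libraries, and the 6 summed to 0.517 FPKM in the mutant and 6.53 FPKM in the control. The 7 erythroid markers in the tables were all at least 2-fold lower and summed to 5652 FPKM in the mutant and 22170 FPKM in the control. The part of these cells in the Mmp9 difference was not tested. In pooled tissue, fewer cells of a type and less RNA per cell cannot be told apart.

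The stromelysin Mmp11, an enzyme of stromal cells known from tissue remodelling, is the stromelysin outside the cluster, on chromosome 10 from 75923224 to 75932463. It stood at 13.8 FPKM in the mutant and 22.4 FPKM in the control, a ratio of 0.615 (0.562 to 0.672) and a log2 ratio of -0.66. It was the Mmp gene with the lowest log2 ratio of the 7 that passed the mean of 1. Mmp3 and Mmp10, the other stromelysins, were at 0 in both libraries.

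The transmembrane enzymes did not share a direction. Mmp14 was lower, as given above. Mmp15, another membrane-bound enzyme that can activate proMMP2, stood at 7.50 FPKM in the mutant and 8.59 FPKM in the control, and its interval held the median gene. Mmp16 stood at 4.18 FPKM in the mutant and 2.92 FPKM in the control, a ratio of 1.43 (1.25 to 1.65) and a log2 ratio of 0.40. It was the Mmp gene with the highest log2 ratio of the 7, short of the 1.5-fold limit, and lay above the median gene under every alternative that gave it a value. Mmp24, an enzyme known from neurons, stood at 0.0161 FPKM in the mutant and 0.00928 FPKM in the control. The GPI-anchored Mmp17 stood at 0.941 FPKM in the mutant and 0.951 FPKM in the control. Mmp23 stood at 1.13 FPKM in both libraries. Mmp28, also called epilysin, stood at 0.784 FPKM in the mutant and 1.23 FPKM in the control, with different leading transcripts. With the most abundant transcript alone it lay above the median gene. Mmp19, Mmp21 and Mmp25, with Adamts8, Adamts14 and Adamts16, lay between 0 and 0.345 FPKM in both libraries. Mmp19 overlaps Tmem198b, at 7.90 FPKM in the mutant and 11.1 FPKM in the control, and Mmp24 overlaps BC029722, at 4.95 FPKM in the mutant and 6.83 FPKM in the control.

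The 3 expressed inhibitors were lower in the mutant relative to the median gene, except for Timp1 with its most abundant transcript alone, and relative to 0, except with TPM-like scaling, which moved the median gene to 0.39. Timp1, a soluble inhibitor found in many tissues, stood at 6.29 FPKM in the mutant and 9.04 FPKM in the control, a ratio of 0.695 (0.561 to 0.861) and a log2 ratio of -0.46. Timp3, which binds to the matrix and also blocks ADAMTS and ADAM enzymes, stood at 5.04 FPKM in the mutant and 6.79 FPKM in the control, a ratio of 0.743 (0.669 to 0.825) and a log2 ratio of -0.37. With Timp2 above, all 3 expressed inhibitors had intervals wholly below the median gene, and none reached the 1.5-fold limit. Timp1 moved to the level of the median gene, 0.01 above it, with the value of its most abundant transcript: its transcript of 890 bases stood at 1.26 FPKM in the mutant and 3.39 FPKM in the control, while that of 887 bases stood at 5.02 FPKM in the mutant and 5.65 FPKM in the control. Timp4 was at 0 in both libraries.

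All 4 Timp genes share their locus with other genes, as 3 of them lie within synapsin genes. Timp1 lies inside Syn1, at 0.0811 FPKM in the mutant and 0.0534 FPKM in the control, and Timp4 inside Syn2, at 0.0746 FPKM in the mutant and 0.220 FPKM in the control. Timp3 lies inside Syn3, on the opposite strand. Syn3 stood at 3.73 FPKM in the mutant and 6.01 FPKM in the control, most of it in a transcript of 4738 bases that overlaps the end of Timp3, at 3.12 FPKM in the mutant and 5.44 FPKM in the control. The clone BC100451 overlaps Timp2, at 0.175 FPKM in the mutant and 0.0170 FPKM in the control. Whether the libraries were stranded is not given in the sources used here, so reads of Timp3 and Syn3 cannot be told apart with certainty.

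Among the Adamts genes, Adamts13 was the one past the 2-fold limit on the log2 ratio. It encodes the plasma protease that cuts von Willebrand factor, and it lies on chromosome 2 from 26973416 to 27009625. It stood at 1.41 FPKM in the mutant, about 89 fragments, and 5.29 FPKM in the control, about 292 fragments. A transcript of 3447 bases that ends at 26998580 held 99.5% of this FPKM in the mutant and 100% in the control. The transcripts of 4496 and 4580 bases, which reach 27009625, stood at 0.00682 FPKM or less in the mutant and at 0 in the control. The ratio of the summed values was 0.267 (0.208 to 0.340), or 3.74-fold lower in the mutant, and the log2 ratio of -1.38 ranked 79 from the lowest of 12259 genes. Of its neighbours, Cacfd1 stood at 52.7 FPKM in the mutant and 64.2 FPKM in the control, a ratio of 0.821 (0.774 to 0.871). Rexo4 stood at 16.4 FPKM in the mutant and 17.7 FPKM in the control, a ratio of 0.928 (0.850 to 1.01). The substrate gene Vwf, a product of endothelium and platelets, was under the mean of 1, at 0.396 FPKM in the mutant and 0.908 FPKM in the control. The 12 endothelial markers all passed the mean of 1, and all had log2 ratios below 0, where 67.9% of all genes did. Of these markers, 11 lay below the median gene. They had a median of -0.51 and summed to 82.4 FPKM in the mutant and 121 FPKM in the control. Their part, and that of the erythroid markers above, in the Adamts13 difference was not tested.

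The hyalectan-cleaving enzymes act on versican, aggrecan and related proteoglycans. Adamts15 stood at 1.19 FPKM in the mutant and 2.49 FPKM in the control, a ratio of 0.478 (0.401 to 0.569) and a log2 ratio of -0.67. It lies on chromosome 9 from 30899155 to 30922452, far from the Mmp cluster, and was the 1 hyalectanase past the 1.5-fold limit. Adamts1 stood at 4.38 FPKM in the mutant and 5.35 FPKM in the control, and Adamts4 at 1.28 FPKM in the mutant and 1.64 FPKM in the control, both with intervals that held the median gene. Adamts9 stood at 3.87 FPKM in the mutant and 3.93 FPKM in the control. Adamts20, known in mice for the belted white spotting of the coat, stood at 1.68 FPKM in the mutant and 1.47 FPKM in the control. These neighbours in function therefore spanned log2 ratios between -0.67 and 0.12. Adamts5, at 0.454 FPKM in the mutant and 0.488 FPKM in the control, and Adamts8 were under the mean of 1.

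Of the procollagen N-proteinases, which remove the amino-terminal propeptide of fibrillar collagens, Adamts2 stood at 0.810 FPKM in the mutant and 1.38 FPKM in the control, a ratio of 0.587 (0.452 to 0.761). Adamts3, which also activates the lymphatic growth factor Vegfc, stood at 1.08 FPKM in the mutant and 0.921 FPKM in the control. The interval of Adamts2 lay wholly below the median gene and that of Adamts3 wholly above it. Adamts14 was under the mean of 1. The COMP-cleaving Adamts7 stood at 6.40 FPKM in the mutant and 7.48 FPKM in the control, with a different leading transcript in each, and Adamts12 at 0.909 FPKM in the mutant and 0.685 FPKM in the control, a ratio of 1.33 (1.03 to 1.72).

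The fibrillin-linked enzymes Adamts10 and Adamts6 lay above the median gene under every alternative that gave them a value. Adamts10, which binds fibrillin microfibrils and was the most abundant Adamts gene, stood at 13.4 FPKM in the mutant and 11.9 FPKM in the control, a ratio of 1.12 (1.04 to 1.22). Adamts6 stood at 2.25 FPKM in the mutant and 1.89 FPKM in the control. Of the remaining genes, Adamts18 stood at 4.69 FPKM in the mutant and 2.86 FPKM in the control, a ratio of 1.64 (1.44 to 1.88) and a log2 ratio of 0.56, at percentile 97.0 of all genes. It lies on chromosome 8 from 113698137 to 113848843 and had the highest log2 ratio of the 24 genes. Its transcript of 4855 bases stood at 2.77 FPKM in the mutant and 2.58 FPKM in the control, and that of 4965 bases at 0.882 FPKM in the mutant and 0.00106 FPKM in the control. With the most abundant transcript alone, the log2 ratio of Adamts18 was 0.08. Adamts19 stood at 5.64 FPKM in the mutant and 4.82 FPKM in the control. Adamts17 stood at 3.01 FPKM in the mutant and 2.88 FPKM in the control.

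Across all 12259 genes, log2 ratios were higher for longer transcripts, with a Spearman correlation of 0.407 across genes of 1 pair of libraries. Of the 24 genes, 11 had a leading transcript between 4000 and 6000 bases, where all 2120 genes had a median of -0.02 and the 11 had -0.18. The 7 genes between 2000 and 4000 bases had a median of -0.47, beside -0.14 for 4951 genes. The 4 between 6000 and 8000 bases had 0.08, beside 0.12 for 706 genes. The 2 of up to 2000 bases, Timp1 and Mmp23, had -0.23, beside -0.25 for 4056 genes. With the length trend removed, the family medians were -0.07 for Adamts, -0.16 for Mmp and -0.35 for Timp genes, and that of all genes was -0.01. Adamts13 then had a log2 ratio of -1.28, Adamts15 -0.73, Mmp11 -0.49, Mmp16 0.43 and Adamts18 0.57. Timp1 went from -0.46 to -0.18, just outside its counting interval. Timp2 went from -0.55 to -0.46 and Timp3 from -0.37 to -0.35. Mmp14 went from -0.47 to -0.32 and Mmp2 from -0.39 to -0.26.

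**Figure D5:**
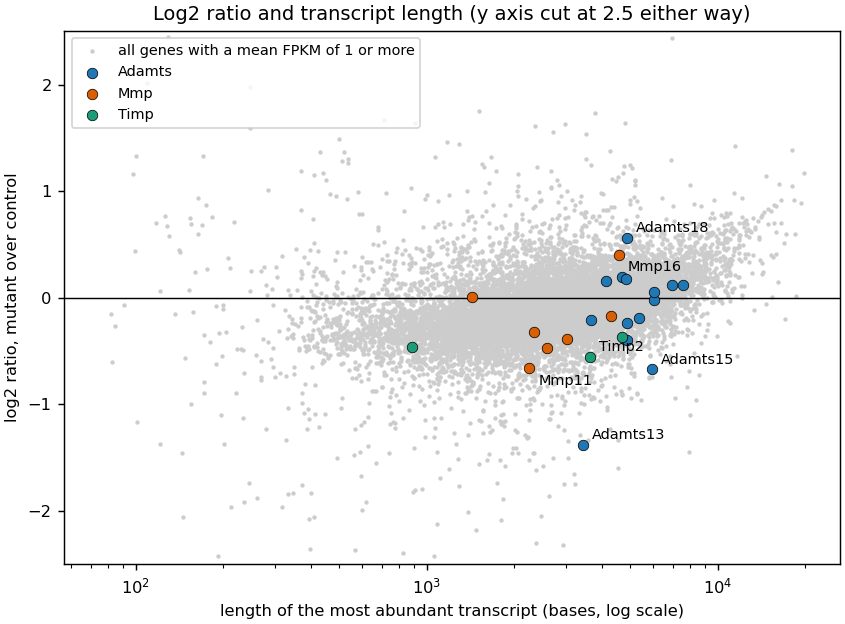
Log2 ratio of mutant over control against the length of the most abundant transcript (bases, log axis), with small grey points for the 12259 genes and large points for the 24 Adamts, Mmp and Timp genes. Longer genes lie higher in general (Spearman 0.407), and Adamts13, at -1.38, lies near the lower edge of the cloud.

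Other genes of the same pathway were taken as lists. For the counts in these lists, the shares of all 12259 genes past the 1.5-fold limit were 5.57% lower, 2.76% higher and 8.33% in either direction. Of 19 ADAM and ADAMTS-like genes, relatives anchored in the membrane or without a protease domain, 9 passed the mean of 1 and 0 passed the 1.5-fold limit in either direction. Their median log2 ratio was -0.18. The most abundant, the sheddase Adam10, stood at 26.5 FPKM in the mutant and 25.9 FPKM in the control. Adam19, a gene needed for heart valves, stood at 5.89 FPKM in the mutant and 8.51 FPKM in the control, the lowest log2 ratio of the list at -0.46. Adam11 had a log2 ratio of -0.38. In the other direction, Adam22 stood at 2.87 FPKM in the mutant and 2.06 FPKM in the control. Its log2 ratio of 0.34 was 0.07 with the length trend removed.

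Of 21 activators and inhibitors, 15 passed the mean of 1, 3 were at least 1.5-fold lower and 1 was higher, with a median of -0.27. Sparc, a collagen-binding matrix protein, was lower, at 39.3 FPKM in the mutant and 68.4 FPKM in the control. The plasminogen activator Plat was lower, at 5.31 FPKM in the mutant and 9.10 FPKM in the control, and so was the complement inhibitor Serping1, at 2.36 FPKM in the mutant and 4.09 FPKM in the control. Lrp1, the endocytic receptor that clears metalloproteinases and their inhibitors, was higher, at 16.7 FPKM in the mutant and 8.97 FPKM in the control. Its log2 ratio of 0.83 was 0.28 with the length trend removed, for a transcript of 14891 bases. The membrane inhibitor Reck stood at 11.1 FPKM in both libraries. Bsg, the inducer of metalloproteinases that was the most abundant of the list, stood at 125 FPKM in the mutant and 152 FPKM in the control.

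Of 29 substrates, 22 passed the mean of 1, 4 were at least 1.5-fold lower and 3 were higher, with a median of -0.13, equal to 2 decimals to that of all genes. The lower ones were fibrillar collagen genes and small proteoglycans. Col1a1 stood at 13.9 FPKM in the mutant and 27.1 FPKM in the control, and Dcn, the proteoglycan decorin, at 1.82 FPKM in the mutant and 3.70 FPKM in the control. Col1a2 and Lum, the proteoglycan lumican, had log2 ratios of -0.74 and -0.63. The higher ones were Vcan, Hspg2 and Fbn2, all with transcripts over 8000 bases. Vcan, which encodes versican, stood at 64.2 FPKM in the mutant and 36.7 FPKM in the control, a log2 ratio of 0.79 that was 0.49 with the length trend removed. Hspg2, which encodes perlecan, stood at 19.8 FPKM in the mutant and 11.2 FPKM in the control, and its log2 ratio of 0.77 was 0.25 with the length trend removed. Fbn2, fibrillin-2, had 0.61 and 0.26 on the same measures. Col3a1, the most abundant of the list by the mean of both libraries, stood at 79.98 FPKM in the mutant and 96.15 FPKM in the control.

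Of 26 other matrix processing enzymes, 19 passed the mean of 1, 2 were at least 1.5-fold lower and 1 was higher, with a median of -0.32. The lower ones cross-link collagen and elastin: Lox stood at 0.740 FPKM in the mutant and 2.28 FPKM in the control, and Loxl1 at 1.93 FPKM in the mutant and 4.10 FPKM in the control. The higher one was the hyaluronan synthase Has1, at 1.92 FPKM in the mutant and 0.187 FPKM in the control, a ratio of 10.3 (5.58 to 20.99). Pcolce, which enhances procollagen C-proteinase, stood at 31.1 FPKM in the mutant and 45.3 FPKM in the control. Ctsl, the most abundant of the list by the mean of both libraries, stood at 44.5 FPKM in the mutant and 45.9 FPKM in the control.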

How the data were processed

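The submitters deposited 1 transcript table per library. Per the file headers, each line of the deposited table gives a length, a coverage signal and an FPKM value, and the table names give Cufflinks as the tool. Its version and the aligner were not given in the sources used here, nor was strandedness. For the build, the submitters' processing notes name mm9, but 72.06% of 45475 transcripts share a start or end with GENCODE models of GRCm38, so coordinates are given on GRCm38, 1-based. Lines with displaced columns (65 of 59120 per library) were left out. FPKM was summed per gene symbol. The transcript length is that of the most abundant transcript. Fragments were approximated as coverage times length over the yield of 1 fragment, about 153.3 bases in the mutant and 156 in the control. Ratios carry exact Clopper-Pearson 95% intervals for counting error. Log2 ratios used a pseudocount of 1 and genes averaging at least 1 FPKM. The length trend is a lowess curve (fraction 0.3). Scripts used Python 3.11.15, pandas 2.3.3, SciPy 1.17.1 and statsmodels 0.14.6, and were tested on simulated data.

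Genes and lists were chosen with earlier results of these data known. Genes that passed the mean of 1 were given values. Those under it were named with values if over 0.5 FPKM in a library or if their interval excluded 1; the chromosome 9 cluster, Mmp24, Adamts5, Reck and Vwf were named after their values were seen. Lists name their most abundant gene and those farthest from 0. The alternatives tried were other pseudocounts, filters and scalings, the length trend removed, the most abundant transcript alone, transcripts with status OK and, added after seeing the data, coverage in place of FPKM.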

Additional observations from a re-analysis of the deposited data

How the results depend on the processing

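No paired analysis was possible because each group has 1 library, and for the same reason no replicate could be left out. With TPM-like scaling to a common total, which moved the median of all genes to 0.39, the median log2 ratios were 0.43 for Adamts, 0.19 for Mmp, 0.057 for Timp and 0.28 for all these genes, with 0 at least 2-fold lower, 1 (Adamts18) at least 2-fold higher, 1 at least 1.5-fold lower and 4 at least 1.5-fold higher. Of all 12259 genes, 70 were at least 2-fold lower and 465 at least 2-fold higher with this scaling. At the 1.5-fold limit, 1.30% of all genes were lower and 24.5% higher. The log2 ratios of Mmp2, Mmp14 and the 3 Timp genes, below 0 as reported, were then above 0 and still below the median gene, and those of Adamts1, Adamts4, Adamts7, Adamts9 and Mmp15 also turned positive. With the most abundant transcript alone, the Adamts median was -0.14. Without a filter, the Mmp median was -0.052 and that of all 38 genes with a signal -0.037. At a mean FPKM of 5 or more, the median of all these genes was -0.38, with 0 genes at least 2-fold lower and 1 at least 1.5-fold lower. Of the 8873 genes at that mean, 88 were at least 2-fold lower and 4.27% at least 1.5-fold lower. A pseudocount of 0.1 gave 2 genes at least 2-fold lower (Adamts13 and Adamts15), 5 at least 1.5-fold lower and 1 higher, and a pseudocount of 5 gave 0 at least 2-fold lower and 1 at least 1.5-fold lower. With 0.1, 312 of all 12259 genes were at least 2-fold lower, 8.54% at least 1.5-fold lower and 4.11% higher. With 5, 56 of all genes were at least 2-fold lower and 2.015% at least 1.5-fold lower. Centring, and coverage in place of FPKM, each gave 1 at least 1.5-fold lower and 1 higher, and scaling to the 75th percentile gave 1 higher. The shares of all genes were 3.23% lower and 4.55% higher with centring, and 3.63% and 4.31% with coverage. With scaling to the 75th percentile, 4.15% of all genes were higher. Summed over all genes, FPKM stood at 474700 in the mutant and 713900 in the control, and TPM-like scaling sets these totals equal. Shifts with scaling, centring and another pseudocount follow from those settings themselves. The cause of the other shifts, and of the unequal totals, was not tested.

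Of 250 single-gene values over 11 alternatives, 182 stayed within the counting interval, 68 did not. The 3 genes past the 1.5-fold limit, Adamts13, Adamts15 and Mmp11, kept a log2 ratio below 0 under every alternative that gave them a value. Other sign changes were those of Adamts3, Adamts17 and Adamts20 with the length trend removed, of Adamts6, Adamts17 and Mmp28 with the most abundant transcript alone, and of Adamts9 with centring, scaling to the 75th percentile and coverage. Relative to the median gene, the side changed for Adamts4 with a pseudocount of 5, for Mmp23 with TPM-like scaling, for Adamts3, Adamts9, Adamts17 and Adamts20 with the length trend removed, and for Adamts17, Mmp28 and Timp1 with the most abundant transcript alone. Adamts13 stayed between -1.69 and -0.59 relative to the median gene. Depth limits most the genes with few fragments, such as Mmp8, Mmp12, Mmp13, Mmp21 and Mmp24.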
